A study of Mus musculus with 12 samples.

Results

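The genes described here encode amino acid and peptide transporters of 8 solute carrier families, Slc1a, Slc3a, Slc6a, Slc7a, Slc15a, Slc36a, Slc38a and Slc43a, measured in Lgr5-GFP+ cells sorted from the intestinal epithelium of Apc_KO, Apc_HET and Apc_WT mice. Members were taken by name, as every gene symbol that starts with one of those prefixes, and the values of all loci of a symbol were summed in each library. Such a name was carried by 44 of the 14499 symbols that occur in any table. Of these, 41 reached 1 FPKM in 4 or more libraries, and 36 could be tested among 12962 symbols. FPKM is a level scaled to transcript length and to the fragments mapped in a library. The 41 comprised 5 Slc1a, 2 Slc3a, 8 Slc6a, 11 Slc7a, 3 Slc15a, 2 Slc36a, 9 Slc38a and 1 Slc43a symbols. One of them, Slc7a6os, is the opposite-strand neighbour of Slc7a6 and no transporter.

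The Apc_KO mice were ApcFlox/Flox, the Apc_HET mice ApcFlox/+ and the Apc_WT mice Apc+/+. All were C57BL/6 and all, the Apc_WT mice included, carried Lgr5-CreERT2-ires-eGFP, in which the Lgr5 gene drives a tamoxifen-activated Cre and a green fluorescent protein. Tamoxifen was given to all, as 1 injection followed by feed with the drug for 5 days, and GFP+ cells were sorted at day 15. The recombinase acts in cells with an active Lgr5 gene, and the sort takes cells that still hold the fluorescent protein. Each genotype had 4 libraries of random-primed cDNA. The labels give no sex or age and do not say that the libraries of a genotype came from separate mice, so p-values measure the spread between these libraries, which may be technical.

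Dietary protein is taken up across the brush border of enterocytes as free amino acids and short peptides, and amino acids leave through exchangers and uniporters of the basolateral membrane. Several of these carriers work only as pairs, in which a light chain of the Slc7a family is bound to a heavy chain of the Slc3a family. Dividing cells rely on another set, of which LAT1 (Slc7a5), ASCT2 (Slc1a5) and the sodium-coupled Slc38a transporters supply large neutral amino acids and glutamine. Apc belongs to the machinery that keeps beta-catenin levels low, and its loss turns on Wnt target genes in the intestinal crypt.

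Total FPKM ran between 391710 and 518428 per library, and read counts were not used here, so the absolute depth is unknown. Apc, the targeted gene, read 17.3, 12.9, 15.3 and 9.94 FPKM in Apc_KO libraries, 9.81, 10.96, 10.7 and 12.5 FPKM in Apc_HET and 9.97, 6.91, 10.5 and 8.20 FPKM in Apc_WT. These whole-gene values do not measure the floxed exon and do not check the labels. Lgr5 itself averaged 41.0 ± 16.8 FPKM in Apc_KO, 26.4 ± 4.52 in Apc_HET and 23.8 ± 4.35 in Apc_WT (SD, n = 4), and Olfm4, another stem cell marker, averaged 391 ± 343 FPKM in Apc_KO, 6301 ± 1328 in Apc_HET and 5461 ± 340.5 in Apc_WT. Of 11 stem cell markers 6 were higher in Apc_KO than in Apc_WT and 2 lower, Slc12a2 (log2 difference -1.36) and Olfm4 (-4.42). Smoc2 did not pass (-0.23). The shares over all symbols tested were 27.9% higher and 17.7% lower. All libraries held Lgr5 RNA in every genotype, and they also held markers of mature enterocytes, secretory cells and stroma, whose values are given beside the results they accompany.

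In Apc_KO against Apc_WT, 10 of the 36 tested members were higher, 16 were lower and 10 did not pass. The test was limma's moderated test on log2(FPKM + 1) over 12962 symbols, with a call at a Benjamini-Hochberg adjusted p under 0.05. Over all symbols 45.5% were called, 27.9% higher and 17.7% lower. The members' median difference was 0.03, beside 0.12 over all symbols. The libraries of the 2 genotypes did not overlap for 21 of the 36, beside 40.4% of all symbols (24.3% with Apc_KO higher and 16% with Apc_KO lower). Slc36a4 and Slc38a3 passed the FPKM filter only through Apc_KO, so both had to differ. Slc38a11 and Slc6a20b passed it only through Apc_HET and Apc_WT, so the filter favoured their difference without fixing it. Slc38a4 also needed its Apc_KO libraries to pass. Elsewhere it reached 1 FPKM only at 1.19 and 1.26 FPKM in Apc_HET and 1.42 FPKM in Apc_WT. Size factors moved the median of all symbols to 0.01 and quantile normalization to -0.02. Over all symbols the calls were 3613 higher and 2291 lower as deposited, 2890 and 2807 with size factors, and 2764 and 3043 with quantile normalization. The members' split was 8 higher and 16 lower with size factors and 9 and 16 with quantile normalization. Without Apc_KO replicates 1 and 4, which stood apart for several members, 22 were called, a choice made after the data were seen.

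Against Apc_HET, 9 members were higher in Apc_KO, 15 were lower and 12 did not pass, with a median of -0.01 beside 0.04 over all symbols. The background was 41.8% called, 22.8% higher and 18.9% lower. Here 22 of the 36 did not overlap, beside 39.5% of all symbols (21.4% with Apc_KO higher and 18% with Apc_KO lower). The Apc_KO libraries enter both comparisons, and the difference between them lies in Slc3a2 and Slc7a6os, which passed against Apc_WT and not against Apc_HET. All other calls had the same direction in both. With Apc_KO replicates 1 and 4 left out, 22 members were called in this comparison too.

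**Figure D1:**
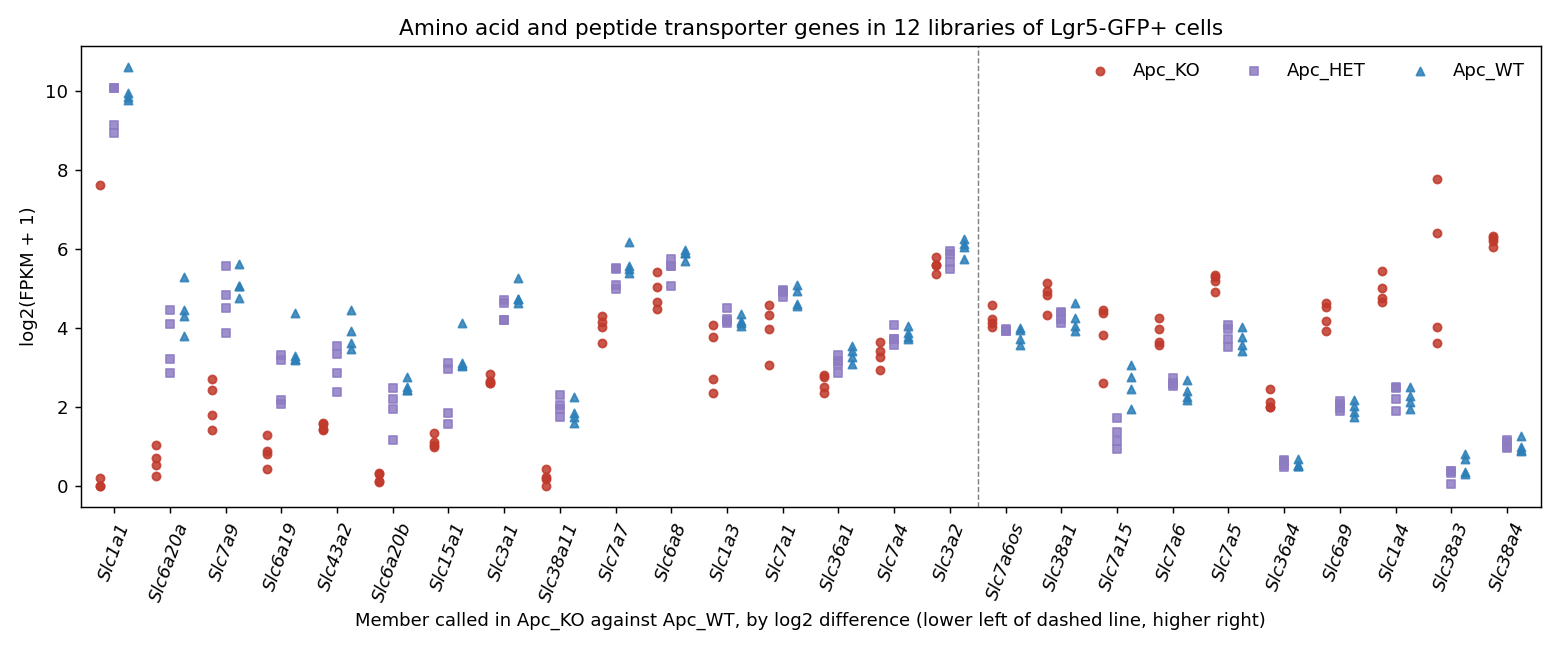
Level of the 26 members called in Apc_KO against Apc_WT, as log2(FPKM + 1) on the vertical axis, with 1 point per library (4 each of Apc_KO, Apc_HET and Apc_WT). The 16 lower members stand left of the dashed line and the 10 higher members right of it. Slc1a1 shows 1 Apc_KO library at 196 FPKM and the others at or near 0, while the Slc38a4 points of Apc_KO lie close together between 65.4 and 79.5 FPKM.

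The 7 brush border carriers described first were all called lower in Apc_KO than in Apc_WT. This set was picked by hand with earlier results of these data known, so its count does not speak for all carriers of the brush border. Slc1a1 is given with the glutamate carriers. Slc6a19, or B0AT1, is the main sodium-coupled transporter for neutral amino acids in the small intestine. It read 0.766, 0.860, 0.355 and 1.47 FPKM in the Apc_KO libraries, 8.15, 3.56, 3.25 and 9.002 FPKM in Apc_HET and 8.89, 8.13, 8.32 and 20.1 FPKM in Apc_WT. Every Apc_KO library lay below every other library, and the 4th Apc_WT library stood above the rest. The log2 difference was -2.66 (SE 0.35, adjusted p = 5.33e-05) against Apc_WT and -1.83 (SE 0.35, adjusted p = 0.00105) against Apc_HET.

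Slc6a20a, a sodium-coupled carrier of proline and other imino acids, had 0.208, 1.08, 0.6603 and 0.446 FPKM in the Apc_KO libraries, 16.4, 8.37, 6.35 and 21.1 FPKM in Apc_HET and 21.1, 18.8, 13.1 and 38.1 FPKM in Apc_WT. The Apc_KO values lay near 0 and did not overlap with the others, which themselves spread widely. Its difference was -3.82 (SE 0.37, adjusted p = 5.04e-06) against Apc_WT and -3.02 (SE 0.37, adjusted p = 3.75e-05) against Apc_HET. Its paralog Slc6a20b averaged 0.168 ± 0.0944 FPKM in Apc_KO, 3.12 ± 1.41 in Apc_HET and 4.83 ± 0.636 in Apc_WT, with a difference of -2.32 (SE 0.23, adjusted p = 6.62e-06) against Apc_WT. Slc6a20b passed the FPKM filter only through Apc_HET and Apc_WT, so the filter favoured its difference without fixing it. Only 3.7% of the Slc6a20b gene is covered by its assembled locus, the paralogs are near-identical and Slc6a20a shares exon positions with Ccr9, so how reads were split between these genes is uncertain.

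Slc7a9 and Slc3a1 form the exchanger that takes up cystine and dibasic amino acids, the one defective in cystinuria. The light chain Slc7a9 had 1.71, 4.47, 2.52 and 5.54 FPKM in the Apc_KO libraries, 27.7, 22.01, 13.9 and 47.01 FPKM in Apc_HET and 26.2, 32.9, 32.7 and 48.5 FPKM in Apc_WT. Its heavy chain Slc3a1, whose locus shares exon positions with Prepl, had 6.23, 5.15, 5.32 and 5.11 FPKM in the Apc_KO libraries, 24.02, 17.6, 17.4 and 25.1 FPKM in Apc_HET and 25.96, 25.8, 23.8 and 38.1 FPKM in Apc_WT. Both chains were lower in every Apc_KO library than in any other library. Slc7a9 differed from Apc_WT by -3.04 (SE 0.35, adjusted p = 2.32e-05) and from Apc_HET by -2.61 (SE 0.35, adjusted p = 8.85e-05). For Slc3a1 the difference was -2.17 (SE 0.16, adjusted p = 6.81e-07) against Apc_WT and -1.76 (SE 0.16, adjusted p = 4.14e-06) against Apc_HET.

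Slc15a1, or PepT1, couples the entry of dipeptides and tripeptides to protons. It had 1.01, 1.08, 1.18 and 1.54 FPKM in the Apc_KO libraries, 6.86, 2.65, 2.02 and 7.72 FPKM in Apc_HET and 7.40, 7.79, 7.33 and 16.5 FPKM in Apc_WT. Apc_KO libraries held 1.01 to 1.54 FPKM, below the lowest Apc_HET library. The difference was -2.21 (SE 0.35, adjusted p = 0.000235) against Apc_WT and -1.26 (SE 0.35, adjusted p = 0.0116) against Apc_HET. Slc36a1, a proton-coupled carrier of small neutral amino acids found at the brush border and on lysosomes, had 6.09, 4.68, 5.78 and 4.11 FPKM in the Apc_KO libraries, 8.02, 7.53, 6.38 and 8.95 FPKM in Apc_HET and 7.57, 8.63, 9.79 and 10.8 FPKM in Apc_WT. Apc_KO did not overlap with either other genotype, though the gap to Apc_HET was narrow. Slc36a1 differed by -0.73 (SE 0.15, adjusted p = 0.00148) against Apc_WT and by -0.50 (SE 0.15, adjusted p = 0.0152) against Apc_HET, and the call against Apc_HET ended without Apc_HET replicate 4 (-0.44, adjusted p = 0.0507).

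The promoter stretches of the peptide carrier Slc15a1 and of the heavy chain Slc3a1 are shown because both apical genes were lower in every Apc_KO library. Each is the 250 bases before the annotated start (RefSeq, GRCm38.p6), 5′ to 3′ on the gene's strand, with CG pairs in capitals. Slc15a1 is chr14:121505255-121505504 on the minus strand and Slc3a1 is chr17:85028097-85028346 on the plus strand.
Slc15a1: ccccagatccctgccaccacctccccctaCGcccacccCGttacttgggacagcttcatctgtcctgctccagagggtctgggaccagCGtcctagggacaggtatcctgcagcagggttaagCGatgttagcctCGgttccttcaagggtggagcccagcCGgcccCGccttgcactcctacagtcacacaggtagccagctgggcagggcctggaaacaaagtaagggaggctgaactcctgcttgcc
Slc3a1: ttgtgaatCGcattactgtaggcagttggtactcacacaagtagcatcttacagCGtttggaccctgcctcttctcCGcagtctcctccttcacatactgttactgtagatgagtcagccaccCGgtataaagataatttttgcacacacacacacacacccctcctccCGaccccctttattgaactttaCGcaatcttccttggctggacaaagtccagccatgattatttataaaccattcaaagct
Slc15a1 holds 7 CG pairs and Slc3a1 holds 6. The letters CAAAGTCCA, searched on both strands as the motif of the enterocyte factor HNF4, occur in the Slc3a1 stretch and in 0.384% of 32851 promoter stretches of this length. They start 39 bases before the annotated start, here in capitals with the bases around them.
Slc3a1 motif: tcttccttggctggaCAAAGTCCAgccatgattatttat
No other member stretch examined holds these letters, which says nothing about binding of the factor.

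Summed over the 7 apical genes, FPKM was 16.3, 17.6, 15.9 and 18.3 in Apc_KO, 94.7, 64.6, 50.6 and 123.5 in Apc_HET and 101.5, 106.5, 99.7 and 177.9 in Apc_WT. The Apc_KO libraries were nearly alike and far below the rest. Markers of enterocytes were lower in Apc_KO too. Of 15 such markers 14 were lower in Apc_KO than in Apc_WT, beside 17.7% of all symbols. Their summed FPKM was 548 to 847 in Apc_KO, 2097 to 3822 in Apc_HET and 3340 to 6475 in Apc_WT. Within Apc_KO the transporter and marker sums did not move together. Replicate 3 had the lowest transporter sum, 15.9, and the highest marker sum, 847. Mgam (-2.53) and Fabp1 (-3.51) were among those called lower. Ada was the one that did not pass (0.27), and none of the 15 was at 0 in all libraries. In these bulk samples fewer enterocytes among the sorted cells and less RNA per cell cannot be told apart, and the part of these markers in the transporter results was not tested.

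**Figure D2:**
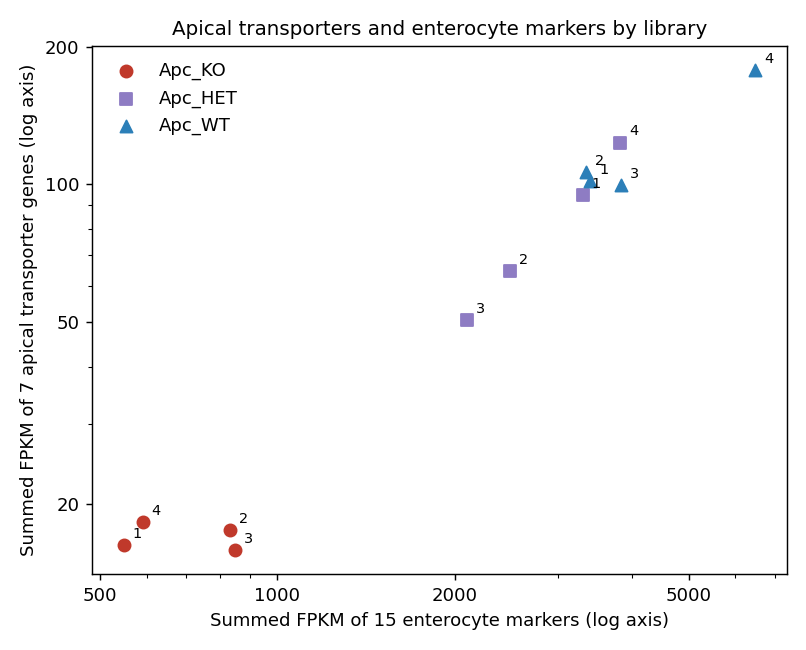
Summed FPKM of the 7 apical transporter genes on the vertical axis against summed FPKM of 15 enterocyte markers on the horizontal axis, both on log axes, with 1 point per library labelled by its replicate number (Apc_KO, Apc_HET, Apc_WT). Apc_KO libraries lie at 15.9 to 18.3 FPKM of transporters, and Apc_WT replicate 4 is highest on both axes with 177.9 and 6475 FPKM.

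Markers of secretory cells were lower in Apc_KO as well, 10 of 12, with 1 higher. Defa24 differed by -2.71 and Fcgbp by -3.97, while Lyz1, the most abundant, did not pass (-1.16, adjusted p = 0.0584). The higher one was Mmp7 (1.88), a protease of Paneth cells. Among 19 peptidases that cut dietary and cellular peptides into the substrates of these carriers, 16 were lower in Apc_KO than in Apc_WT, 1 was higher and 2 did not pass, with a median of -1.91, beside 17.7% and 27.9% of all symbols called lower and higher. Enpep, a brush border aminopeptidase, averaged 3.11 ± 0.916 FPKM in Apc_KO and 57.3 ± 20.4 in Apc_WT (SD, n = 4), a difference of -3.80 (SE 0.42, adjusted p = 1.62e-05). Mep1b, a subunit of meprin, averaged 6.16 ± 3.78 FPKM in Apc_KO and 68.1 ± 35.7 in Apc_WT, and the dipeptidase relative Naaladl1 averaged 1.47 ± 0.539 FPKM in Apc_KO and 22.7 ± 6.204 in Apc_WT, with differences of -3.33 and -3.25. The one higher gene was the lysosomal peptidase Tpp1, with 20.03 ± 1.74 FPKM in Apc_KO and 14.4 ± 0.664 in Apc_WT and a difference of 0.45 (SE 0.09, adjusted p = 0.00128).

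Partners that carry, anchor or energize the transporters gave a mixed count, with 5 of 11 lower, 1 higher and 5 that did not pass. The shares over all symbols were 17.7% lower and 27.9% higher. Pdzk1, a scaffold of the brush border, averaged 2.33 ± 0.353 FPKM in Apc_KO and 10.8 ± 4.55 in Apc_WT (SD, n = 4; -1.77), and the potassium channel Kcnn4 averaged 16.7 ± 4.56 FPKM in Apc_KO and 48.5 ± 2.11 in Apc_WT (-1.51). Kcnq1, another potassium channel, was lower too (-0.61). Slc9a3, the sodium-proton exchanger NHE3 that sets the proton gradient used by PepT1, was higher, with 138 ± 40.5 FPKM in Apc_KO and 20.8 ± 7.53 in Apc_WT and a difference of 2.70 (SE 0.42, adjusted p = 0.000242).

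The basolateral carriers picked here, Slc7a7, Slc43a2 and Slc3a2, were lower than in Apc_WT too, by a smaller amount for the heavy chain Slc3a2. Other members were not sorted by membrane, so this does not speak for all basolateral carriers. Slc7a7, or y+LAT1, the light chain that releases dibasic amino acids, had 11.5, 18.9, 15.4 and 17.1 FPKM in the Apc_KO libraries, 44.3, 33.4, 30.7 and 44.98 FPKM in Apc_HET and 41.3, 46.6, 44.3 and 72.02 FPKM in Apc_WT. All Apc_KO libraries lay below all others. The difference was -1.62 (SE 0.20, adjusted p = 3.64e-05) against Apc_WT and -1.24 (SE 0.20, adjusted p = 0.000353) against Apc_HET, and the Slc7a7 locus shares exon positions with Oxa1l. Slc43a2, or LAT4, a uniporter of branched and aromatic amino acids, had 2.05, 1.999, 1.69 and 1.73 FPKM in the Apc_KO libraries, 9.13, 6.28, 4.21 and 10.7 FPKM in Apc_HET and 11.3, 10.2, 14.2 and 21.2 FPKM in Apc_WT. It read 1.69 to 2.05 FPKM in Apc_KO, with no overlap, and differed by -2.36 (SE 0.26, adjusted p = 1.27e-05) against Apc_WT and -1.52 (SE 0.26, adjusted p = 0.000477) against Apc_HET.

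Slc7a8, or LAT2, another basolateral exchanger, had a failed estimate in Apc_WT replicate 1 and was left out of the fit over 12962 symbols. It read 1.56, 2.59, 3.25 and 1.67 FPKM in Apc_KO, 39.9, 30.6, 21.6 and 39.9 FPKM in Apc_HET and 38.7, 44.7 and 47.2 FPKM in the other 3 Apc_WT libraries. The groups with Apc_KO did not overlap. With the failed value set to missing, a choice made after the data were seen, the log2 difference was -3.80 against Apc_WT (limma adjusted p = 3.4e-07) and -3.37 against Apc_HET (limma adjusted p = 5.2e-07). An exact two-sided permutation test of 4 against 3 libraries gave p = 0.0286, the smallest possible.

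Slc3a2, or 4F2hc, is the heavy chain shared by Slc7a5, Slc7a6, Slc7a7, Slc7a8 and Slc7a11. It had 40.7, 55.2, 47.9 and 47.7 FPKM in the Apc_KO libraries, 60.9, 49.9, 44.4 and 58.4 FPKM in Apc_HET and 53.4, 65.9, 68.9 and 75.3 FPKM in Apc_WT. Apc_KO libraries overlapped with both other genotypes. The difference was -0.45 (SE 0.14, adjusted p = 0.0192) against Apc_WT, a call that ended without Apc_WT replicate 4 (-0.38, adjusted p = 0.06), with arrayWeights (-0.33) and without Apc_KO replicates 1 and 4 (-0.34). Against Apc_HET it was -0.15 (SE 0.14, adjusted p = 0.411) and did not pass.

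The light chains that pair with Slc3a2 went in opposite directions. Slc7a7 was lower, as was Slc7a8 in the fit with its failed value missing. Slc7a5 and Slc7a6 were higher, and Slc7a11 did not pass against Apc_HET. Slc7a5, or LAT1, imports large neutral amino acids such as leucine. It had 39.7, 35.6, 38.7 and 29.6 FPKM in the Apc_KO libraries, 12.2, 14.9, 16.1 and 10.5 FPKM in Apc_HET and 12.8, 11.03, 15.3 and 9.73 FPKM in Apc_WT, with every Apc_KO library above every other. The difference was 1.49 (SE 0.16, adjusted p = 1.24e-05) against Apc_WT and 1.36 (SE 0.16, adjusted p = 2.86e-05) against Apc_HET. Slc7a6, or y+LAT2, which exchanges glutamine for arginine, had 11.6, 18.3, 14.9 and 10.9 FPKM in the Apc_KO libraries, 4.79, 5.75, 5.096 and 5.07 FPKM in Apc_HET and 3.81, 4.32, 5.46 and 3.52 FPKM in Apc_WT. It too separated fully, with 1.48 (SE 0.16, adjusted p = 1.45e-05) against Apc_WT and 1.25 (SE 0.16, adjusted p = 6.74e-05) against Apc_HET. Slc7a6 and Slc7a6os were assigned to 1 assembled locus, and Slc7a6os had 17.96, 16.6, 15.4 and 23.03 FPKM in the Apc_KO libraries, 14.6, 14.8, 14.2 and 14.3 FPKM in Apc_HET and 12.3, 15.2, 10.96 and 14.5 FPKM in Apc_WT. Slc7a6os differed by 0.43 (SE 0.13, adjusted p = 0.0179) against Apc_WT. That call ended with size factors (0.32), with quantile normalization (0.32), with only the 2 genotypes in the fit (0.43), without Apc_WT replicate 3 (0.35) and without Apc_KO replicates 1 and 4 (0.27). Against Apc_HET Slc7a6os did not pass (0.30), except without Apc_KO replicate 3 (0.37, adjusted p = 0.0497).

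Of the summed FPKM of Slc7a5, Slc7a6 and Slc7a7, Slc7a5 made up 63.2%, 48.9%, 56.0% and 51.4% in Apc_KO, 17.3% to 31.0% in Apc_HET and 11.4% to 23.5% in Apc_WT. Slc7a7 made up 18.3% to 29.7% in Apc_KO, 59.2% to 74.3% in Apc_HET and 68.1% to 84.5% in Apc_WT. The sum of these 3 light chains was 57.5 to 72.8 in Apc_KO, 52.0 to 61.3 in Apc_HET and 58.0 to 85.3 FPKM in Apc_WT. The groups overlapped in this sum and differed in its makeup. Slc7a8 and Slc7a11, which also pair with Slc3a2, are not in it. Slc7a8 read 1.56 to 3.25 FPKM in Apc_KO, 21.6 to 39.9 in Apc_HET and 38.7 to 47.2 in the Apc_WT libraries with an estimate. The overlap therefore does not speak for all light chains of Slc3a2.

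Of the neutral exchangers of the Slc1a family, Slc1a4 was called higher and Slc1a5 was not called. Slc1a4, or ASCT1, an exchanger of serine, alanine and cysteine, had 43.04, 24.6, 31.3 and 26.4 FPKM in the Apc_KO libraries, 3.61, 4.75, 4.59 and 2.79 FPKM in Apc_HET and 3.92, 3.41, 4.67 and 2.86 FPKM in Apc_WT. Its Apc_KO mean was 8.44 times that of Apc_WT and no libraries overlapped. The log2 difference was 2.76 (SE 0.20, adjusted p = 4.23e-07) against Apc_WT and 2.70 (SE 0.20, adjusted p = 5.64e-07) against Apc_HET. Slc1a5, or ASCT2, the glutamine exchanger, averaged 92.8 ± 7.74 FPKM in Apc_KO, 82.2 ± 5.53 in Apc_HET and 76.3 ± 11.2 in Apc_WT (SD, n = 4). It did not pass against Apc_WT, with 0.29 (SE 0.12, adjusted p = 0.0678), although it did without Apc_WT replicate 3 (0.35, adjusted p = 0.0466). It did not pass against Apc_HET either (0.17). Slc1a4 made up 20.5% to 31.3% of the pair in Apc_KO, 3.56% to 5.39% in Apc_HET and 3.83% to 5.81% in Apc_WT.

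Among the 9 Slc38a genes, sodium-coupled neutral amino acid transporters, 3 were higher in Apc_KO than in Apc_WT, 1 was lower and 5 did not pass. Slc38a4, or SNAT4, a carrier best known from liver and placenta, had 73.5, 65.4, 79.5 and 77.5 FPKM in the Apc_KO libraries, 1.19, 0.990, 1.26 and 0.967 FPKM in Apc_HET and 1.42, 0.846, 0.8898 and 0.998 FPKM in Apc_WT. The Apc_KO mean was 71.2 times that of Apc_WT, and the Apc_KO libraries were close together. Slc38a4 passed the FPKM filter only with its Apc_KO libraries counted. The difference was 5.21 (SE 0.12, adjusted p = 4.16e-11) against Apc_WT and 5.16 (SE 0.12, adjusted p = 4.65e-11) against Apc_HET. Slc38a3, or SNAT3, a glutamine carrier of liver, kidney and brain, had 84.4, 220.5, 15.3 and 11.4 FPKM in the Apc_KO libraries, 0.322, 0.0496, 0.273 and 0.316 FPKM in Apc_HET and 0.279, 0.605, 0.7601 and 0.248 FPKM in Apc_WT. All Apc_KO libraries lay above all others, which the FPKM filter fixed, since Slc38a3 passed it only through Apc_KO. The Apc_KO libraries differed from each other by 19.3 times. The difference was 4.93 (SE 0.71, adjusted p = 0.00013) against Apc_WT, which was 4.15 without Apc_KO replicate 2 and 5.54 without Apc_KO replicate 4. Against Apc_HET it was 5.16 (SE 0.71, adjusted p = 0.000101), with 4.39 and 5.78 without the same libraries. The tables' Slc38a3 locus spans only 4.4% of the annotated gene.

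Together Slc38a3 and Slc38a4 made up 39.7%, 59.1%, 31.2% and 40.2% of all Slc38a FPKM in Apc_KO. Their share was 0.599% to 0.840% in Apc_HET and 0.768% to 0.985% in Apc_WT. Both passed the FPKM filter only through or with Apc_KO, so a higher share there was largely fixed by the filter. The Slc38a3 part comes from a locus of 4.4% of its gene. Markers of stroma and endothelium also differed, 4 of 5 tested higher in Apc_KO than in Apc_WT and 1 lower. The shares over all symbols were 27.9% higher and 17.7% lower. The 6 such markers with values summed to 160 to 180 FPKM in Apc_KO, 20.8 to 88.5 in Apc_HET and 8.91 to 26.5 in Apc_WT. Vim averaged 121 ± 8.85 FPKM in Apc_KO, 44.1 ± 29.2 in Apc_HET and 11.6 ± 5.48 in Apc_WT (SD, n = 4). Cdh5, a cadherin of endothelium, had 14.2 to 29.3 FPKM in Apc_KO and at most 0.0158 FPKM in Apc_WT, and Pdgfra, a receptor of fibroblasts, had 7.81 to 34.9 FPKM in Apc_KO and at most 0.0604 FPKM in Apc_WT. The lower one was Pdgfrb (-1.25). The part of such cells in the higher transporters was not tested. Leukocyte markers were low in all, with a sum of 1.21 to 4.67 FPKM in Apc_KO and 6.05 to 7.70 FPKM in Apc_WT. Itgam, Cd3g and Cd3e were the most abundant, and 1 of the 3 tested, Itgam, was called lower (-1.63). No erythrocyte marker was in the tables.

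The promoter stretches of Slc38a4 and Slc1a4 are shown because both genes were higher in every Apc_KO library. Slc38a4 is the most upstream of its annotated starts, chr15:97055957-97056206 on the minus strand, with 3 CG pairs. Slc1a4 is chr11:20332714-20332963 on the minus strand, with 16 CG pairs in capitals.
Slc38a4: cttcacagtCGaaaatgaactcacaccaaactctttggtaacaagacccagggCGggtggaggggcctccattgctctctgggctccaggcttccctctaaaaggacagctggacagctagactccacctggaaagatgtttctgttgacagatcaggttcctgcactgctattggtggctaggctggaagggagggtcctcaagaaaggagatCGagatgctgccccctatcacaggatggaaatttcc
Slc1a4: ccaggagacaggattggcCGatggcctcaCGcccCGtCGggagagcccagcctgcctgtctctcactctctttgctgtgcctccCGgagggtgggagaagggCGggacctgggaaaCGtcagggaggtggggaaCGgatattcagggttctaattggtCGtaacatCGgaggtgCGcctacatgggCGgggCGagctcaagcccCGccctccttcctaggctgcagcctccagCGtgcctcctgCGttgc
Neither holds CTTTGAT, searched on both strands as the core bound by the TCF and LEF factors of the Wnt pathway, which 3.21% of all promoter stretches and 4 of 45 member stretches hold (Slc1a2, Slc7a1, Slc38a9 and Slc38a10). The E-box CACGTG was in 6.02% of all stretches and in 2 of the members' (Slc36a1 and Slc38a7). The amino acid response letters TGATGNAA were in 3.45% of all stretches and in 3 of the members', which belong to Slc7a7 and Slc7a11. With 1 value per gene, the median over its stretches, the median number of CG pairs was 16 over 7 higher members with an entry, 9 over 14 lower members and 15 over 7 that did not pass, beside 16 over 9130 genes tested. These matches are descriptions of letters in a window.

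Slc38a1, or SNAT1, a glutamine importer, had 29.8, 27.9, 34.7 and 19.2 FPKM in the Apc_KO libraries, 18.01, 19.9, 16.6 and 20.3 FPKM in Apc_HET and 18.1, 15.7, 24.1 and 14.2 FPKM in Apc_WT. The genotypes overlapped. Its difference was 0.60 (SE 0.19, adjusted p = 0.0192) against Apc_WT, a call that ended with size factors (0.48), without Apc_KO replicate 3 (0.49), without Apc_WT replicate 2 (0.55) and without Apc_WT replicate 4 (0.50). Against Apc_HET it was 0.53 (SE 0.19, adjusted p = 0.0385). That call ended with size factors (0.49) and without any 1 of Apc_KO replicates 1, 2 and 3, the 4 Apc_HET libraries or Apc_WT replicate 1, with values of 0.42 to 0.57. Slc38a2, or SNAT2, the amino acid-regulated importer, had the highest mean of the family in each genotype, though in Apc_KO replicate 2 Slc38a3 and in Apc_KO replicate 4 Slc38a4 were higher. It averaged 98.4 ± 32.1 FPKM in Apc_KO, 88.1 ± 10.4 in Apc_HET and 72.9 ± 11.5 in Apc_WT (SD, n = 4). It did not pass against Apc_WT (0.38), except without Apc_KO replicate 4 (0.59, adjusted p = 0.0125) and without Apc_KO replicates 1 and 4 (0.41, adjusted p = 0.0421).

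Slc38a11, a little-studied relative, was the lower member of the family, with 0.132, 0.184, 0.358 and 0 FPKM in Apc_KO, 2.90, 2.36, 3.96 and 3.20 FPKM in Apc_HET and 2.04, 2.40, 2.65 and 3.80 FPKM in Apc_WT. It is listed at 0 in 1 Apc_KO library, and no Apc_KO library overlapped with another genotype. Slc38a11 passed the FPKM filter only through Apc_HET and Apc_WT, so the filter favoured its difference without fixing it. The difference was -1.66 (SE 0.17, adjusted p = 9.79e-06) against Apc_WT and -1.81 (SE 0.17, adjusted p = 5.46e-06) against Apc_HET. Slc38a10 averaged 48.8 ± 11.6 FPKM in Apc_KO, 52.5 ± 1.803 in Apc_HET and 53.4 ± 11.5 in Apc_WT and did not pass (-0.14). Slc38a6, whose locus spans 31% of the gene, averaged 6.52 ± 1.39 FPKM in Apc_KO, 5.78 ± 1.32 in Apc_HET and 5.15 ± 1.01 in Apc_WT, also short of a call (0.28).

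The acidic amino acid carriers were lower where they were called. Slc1a1, or EAAC1, the glutamate and aspartate transporter of the brush border, had 0.157, 196, 0 and 0 FPKM in the Apc_KO libraries, 1079, 571, 492 and 1084 FPKM in Apc_HET and 999, 920, 1574 and 883 FPKM in Apc_WT. Apc_KO replicate 2 stood apart from the other 3, of which 2 are listed at 0, and still lay below every other library. The log2 difference was -8.10 (SE 1.36, adjusted p = 0.000422) against Apc_WT. It was -9.99 without Apc_KO replicate 2, and -7.45 without either Apc_KO replicate 3 or 4. Against Apc_HET it was -7.61 (SE 1.36, adjusted p = 0.000744), with -9.50 without Apc_KO replicate 2 and -6.96 without either of replicates 3 and 4. Since 2 libraries are listed at 0, the size depends on the pseudocount and was -10.3 against Apc_WT with 0.1. With arrayWeights the differences were -6.57 and -6.08, and without Apc_KO replicates 1 and 4 they were -6.25 and -5.76.

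These Slc1a1 values come from a partial locus, chr19:28902745-28912029 on GRCm38, which is 11.8% of a gene that runs between 28835135 and 28913960 on the plus strand. Annotated exons of the antisense gene 4430402I18Rik overlap 8 exon intervals of Slc1a1 inside it. Strandedness is not given in the sources used here, so reads of the 2 genes cannot be told apart. The antisense symbol itself read 0.993, 2.02, 2.42 and 0.896 FPKM in Apc_KO, 19.1, 15.8, 9.80 and 17.3 FPKM in Apc_HET and 17.3, 14.7, 19.7 and 16.0 FPKM in Apc_WT. Its row lies at the Slc1a1 locus in the Apc_WT tables and at another locus in the Apc_KO and Apc_HET tables.

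Slc1a3, or GLAST, a glutamate carrier best known from glia, had 4.15, 15.96, 12.6 and 5.57 FPKM in the Apc_KO libraries, 17.9, 17.4, 16.6 and 22.0 FPKM in Apc_HET and 19.7, 17.1, 15.7 and 16.7 FPKM in Apc_WT. Apc_KO replicates 1 and 4 were lowest, and replicate 2 lay within the Apc_WT range. The difference was -0.95 (SE 0.31, adjusted p = 0.0244) against Apc_WT. That call ended without Apc_KO replicate 1 (-0.66), Apc_KO replicate 4 (-0.78), Apc_WT replicate 1 (-0.89) or Apc_KO replicates 1 and 4 together (-0.26), with only the 2 genotypes in the fit (-0.95, adjusted p = 0.059) and with arrayWeights (-0.45). Against Apc_HET it was -1.04 (SE 0.31, adjusted p = 0.0174), a call that ended with arrayWeights (-0.49) and without Apc_KO replicates 1 and 4 (-0.35). Slc1a2, or GLT-1, had loci that differed between the tables and was left out of the fit. Nearly all of its FPKM in Apc_KO and Apc_WT came from chr2:102782952-102783341, which the Apc_HET table does not list under this symbol. At the loci common to Apc_KO and Apc_WT it averaged 1.01 ± 0.505 FPKM in Apc_KO and 3.91 ± 1.28 FPKM in Apc_WT (SD, n = 4). A fit on the loci shared by 2 genotypes, added after the data were seen, gave -1.28 (limma adjusted p = 0.00327) and an exact two-sided permutation test p = 0.0286, the smallest that 70 regroupings allow.

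Members that carry transmitters and osmolytes moved both ways. Slc6a9, or GlyT1, the glycine transporter, had 24.1, 14.3, 22.1 and 17.1 FPKM in the Apc_KO libraries, 2.97, 3.44, 3.22 and 2.73 FPKM in Apc_HET and 2.68, 3.13, 3.52 and 2.36 FPKM in Apc_WT. No Apc_KO library overlapped with another genotype. The difference was 2.36 (SE 0.16, adjusted p = 3.21e-07) against Apc_WT and 2.29 (SE 0.16, adjusted p = 4.52e-07) against Apc_HET. The Slc6a9 locus shares exon positions with B4galt2 and Ccdc24. Slc6a8, the creatine transporter, had 42.2, 24.3, 32.03 and 21.4 FPKM in the Apc_KO libraries, 46.95, 46.8, 32.5 and 53.4 FPKM in Apc_HET and 58.6, 51.7, 58.7 and 62.8 FPKM in Apc_WT. It was lower than in Apc_WT without overlap, with a difference of -0.97 (SE 0.20, adjusted p = 0.00172). Against Apc_HET its difference was -0.59 (SE 0.20, adjusted p = 0.0317), and that call ended with only the 2 genotypes in the fit (-0.59, adjusted p = 0.0743) or without 1 of Apc_KO replicates 2 and 4 or Apc_HET replicates 1, 2 and 4, with values of -0.57 to -0.45.

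Slc6a4, the serotonin transporter of enterocytes and neurons, had a failed estimate in Apc_HET replicate 1 and was left out of the fit. It read 0.275, 1.32, 1.36 and 0.674 FPKM in Apc_KO, 16.5, 14.0 and 24.7 FPKM in the other 3 Apc_HET libraries and 22.1, 23.6, 19.7 and 27.1 FPKM in Apc_WT. The Apc_KO libraries did not overlap with the rest. With the failed value missing the difference was -3.70 against Apc_WT (limma adjusted p = 3.1e-07) and -3.35 against Apc_HET (limma adjusted p = 1.26e-06), and exact two-sided permutation tests gave the smallest p possible, 0.0286. Slc6a6, the taurine transporter, averaged 27.5 ± 7.05 FPKM in Apc_KO, 31.6 ± 3.39 in Apc_HET and 32.3 ± 3.08 in Apc_WT (SD, n = 4) and did not pass (-0.26). Slc6a7, a proline transporter of brain, averaged 4.84 ± 3.33 FPKM in Apc_KO, 3.51 ± 0.965 in Apc_HET and 3.51 ± 0.9797 in Apc_WT, with a difference of 0.20 that did not pass and was -0.06 with quantile normalization.

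The FPKM rule left out 3 symbols. Slc6a13, a GABA carrier, had 1.56, 0.165, 0.870 and 3.29 FPKM in Apc_KO and at most 0.170 elsewhere. Slc6a17, a vesicular carrier of neurons, had 6.87, 0.598, 0.186 and 1.23 FPKM in Apc_KO and at most 0.0342 elsewhere. Slc7a3, a cationic carrier, had 19.1 FPKM in Apc_WT replicate 2 and at most 0.357 in the other Apc_HET and Apc_WT libraries, and it is not listed in the Apc_KO tables. Just inside the rule lay Slc36a4 and Slc38a3, each above 1 FPKM in the 4 Apc_KO libraries alone.

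The cationic and cystine carriers of the Slc7a family were uneven among the Apc_KO libraries. Slc7a1, or CAT1, the general importer of arginine and lysine, had 14.9, 19.3, 23.03 and 7.44 FPKM in the Apc_KO libraries, 26.6, 29.4, 29.7 and 30.4 FPKM in Apc_HET and 29.9, 22.6, 33.5 and 23.7 FPKM in Apc_WT. Apc_KO replicate 4 was lowest and replicate 3 overlapped with Apc_WT. The difference was -0.81 (SE 0.26, adjusted p = 0.0237) against Apc_WT and -0.91 (SE 0.26, adjusted p = 0.0152) against Apc_HET. The first of these calls ended without Apc_WT replicate 1 (-0.77), Apc_WT replicate 3 (-0.71) or Apc_KO replicates 1 and 4 (-0.35), with only the 2 genotypes in the fit (-0.81, adjusted p = 0.0611) and with arrayWeights (-0.44).

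Slc7a4, a relative of the cationic carriers whose substrate is not settled, had 8.62, 9.72, 11.6 and 6.77 FPKM in the Apc_KO libraries, 12.4, 15.9, 12.3 and 10.96 FPKM in Apc_HET and 12.4, 12.9, 13.7 and 15.7 FPKM in Apc_WT. Every Apc_KO library was below every Apc_WT library, with a difference of -0.54 (SE 0.16, adjusted p = 0.0129), a call that ended with arrayWeights (-0.35) and without Apc_KO replicates 1 and 4 (-0.33). Against Apc_HET it differed by -0.46 (SE 0.16, adjusted p = 0.0329). That call ended with only the 2 genotypes in the fit (adjusted p = 0.0727), with arrayWeights (-0.37), without Apc_KO replicates 1 and 4 (-0.24), and without 1 of Apc_KO replicates 1 and 4 or Apc_HET replicates 1, 2 and 3, with values of -0.47 to -0.34. The Slc7a4 locus shares exon positions with P2rx6.

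Slc7a15, described in mouse as a carrier with a preference for aromatic amino acids, had 20.03, 21.1, 13.1 and 5.11 FPKM in the Apc_KO libraries, 1.61, 1.21, 0.919 and 2.34 FPKM in Apc_HET and 4.48, 2.91, 7.38 and 5.79 FPKM in Apc_WT. Apc_KO replicates 1, 2 and 3 were higher than all others, and replicate 4 lay within the Apc_WT range. The difference was 1.26 (SE 0.38, adjusted p = 0.0162) against Apc_WT, which ended without Apc_WT replicate 2 (1.06, adjusted p = 0.0519), and 2.52 (SE 0.38, adjusted p = 0.000187) against Apc_HET. The values are the sum of 2 loci that went opposite ways. At chr12:8528400-8539610 they were 0.332 to 0.579 FPKM in Apc_KO, 0.594 to 1.94 FPKM in Apc_HET and 2.67 to 5.46 FPKM in Apc_WT, with every Apc_KO library lowest. At chr12:8572116-8584952 they were 4.68 to 20.7 FPKM in Apc_KO, 0.0356 to 0.510 FPKM in Apc_HET and 0 to 3.79 FPKM in Apc_WT, with every Apc_KO library highest. With only the locus of highest mean the differences were 2.73 against Apc_WT and 3.39 against Apc_HET. The 2 loci span 34% of the gene.

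Slc7a2, or CAT2, and Slc7a11, or xCT, the cystine-glutamate exchanger, had loci that differed between the tables. Slc7a2 read 98.4, 97.1, 30.4 and 16.8 FPKM in Apc_KO and 22.0, 104.4, 52.5 and 33.8 FPKM in Apc_WT, and it is not listed in the Apc_HET tables. The groups overlapped, with a difference of 0.07 (limma adjusted p = 0.943 in the same added fit). Slc7a11 read 3.57, 26.2, 17.03 and 1.88 FPKM in Apc_KO and 2.19, 3.52, 3.05 and 3.98 FPKM in Apc_HET, at a locus of 1.1% of the gene. Apc_KO replicates 2 and 3 were high and 1 and 4 lay near the Apc_HET values. The difference of 1.12 did not pass (limma adjusted p = 0.206, exact two-sided permutation p = 0.314).

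**Figure D3:**
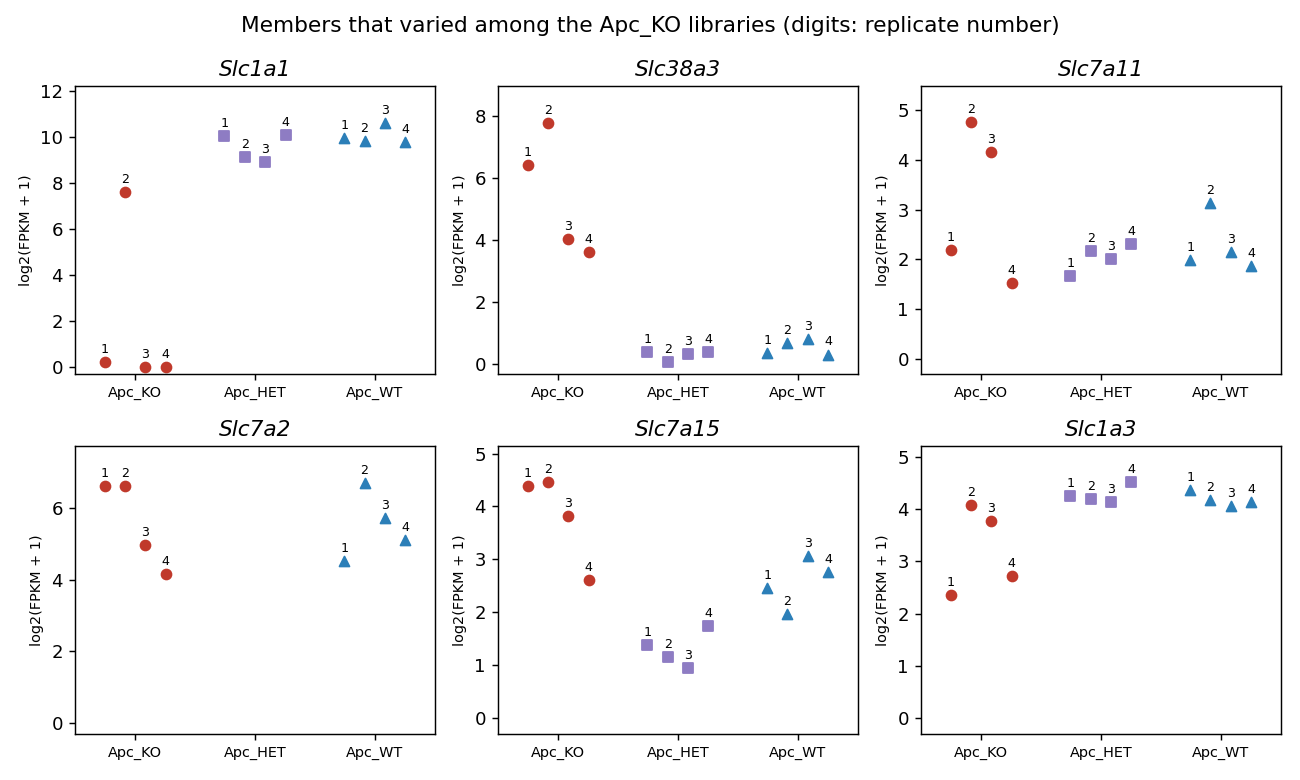
Level of 6 members that differed among the Apc_KO libraries, as log2(FPKM + 1) on the vertical axis by genotype (Apc_KO, Apc_HET, Apc_WT), with 1 point per library and its replicate number. Apc_KO replicate 2 alone is high for Slc1a1, replicates 1 and 2 lead for Slc38a3 and Slc7a2, and replicates 2 and 3 lead for Slc7a11 and Slc1a3. The Apc_WT points of Slc7a11 belong to another locus than the rest, and Slc7a2 has no Apc_HET points.

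Besides Slc36a1, other members are linked to lysosomes or endosomes. Slc36a4, a high-affinity carrier of proline and tryptophan, averaged 3.499 ± 0.723 FPKM in Apc_KO, 0.503 ± 0.0895 in Apc_HET and 0.488 ± 0.0951 in Apc_WT (SD, n = 4), without overlap and with a difference of 1.59 (SE 0.13, adjusted p = 1.75e-06) against Apc_WT and 1.57 (SE 0.13, adjusted p = 2.17e-06) against Apc_HET. Slc36a4 passed the FPKM filter only through Apc_KO, so its separation from the other genotypes was fixed by the filter. Its direction was opposite to that of its relative Slc36a1. Slc38a9, the lysosomal arginine sensor upstream of mTORC1, averaged 6.095 ± 1.77 FPKM in Apc_KO, 4.84 ± 0.569 in Apc_HET and 4.69 ± 0.914 in Apc_WT. Slc38a7, a lysosomal exporter of glutamine, averaged 7.02 ± 0.534 FPKM in Apc_KO, 6.05 ± 0.616 in Apc_HET and 6.00 ± 0.552 in Apc_WT. Slc15a4, a lysosomal carrier of histidine and peptides, averaged 5.14 ± 0.962 FPKM in Apc_KO, 4.45 ± 0.563 in Apc_HET and 4.36 ± 0.722 in Apc_WT at a locus that spans 59.1% of the gene. None of these 3 passed against Apc_WT, with differences of 0.30, 0.20 and 0.19, the last of which was -0.06 with quantile normalization. Slc15a2, or PepT2, the high-affinity peptide carrier, averaged 7.304 ± 3.33 FPKM in Apc_KO, 4.57 ± 3.04 in Apc_HET and 4.68 ± 1.41 in Apc_WT and did not pass either (0.51), while its relative Slc15a1 was lower.

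**Figure D4:**
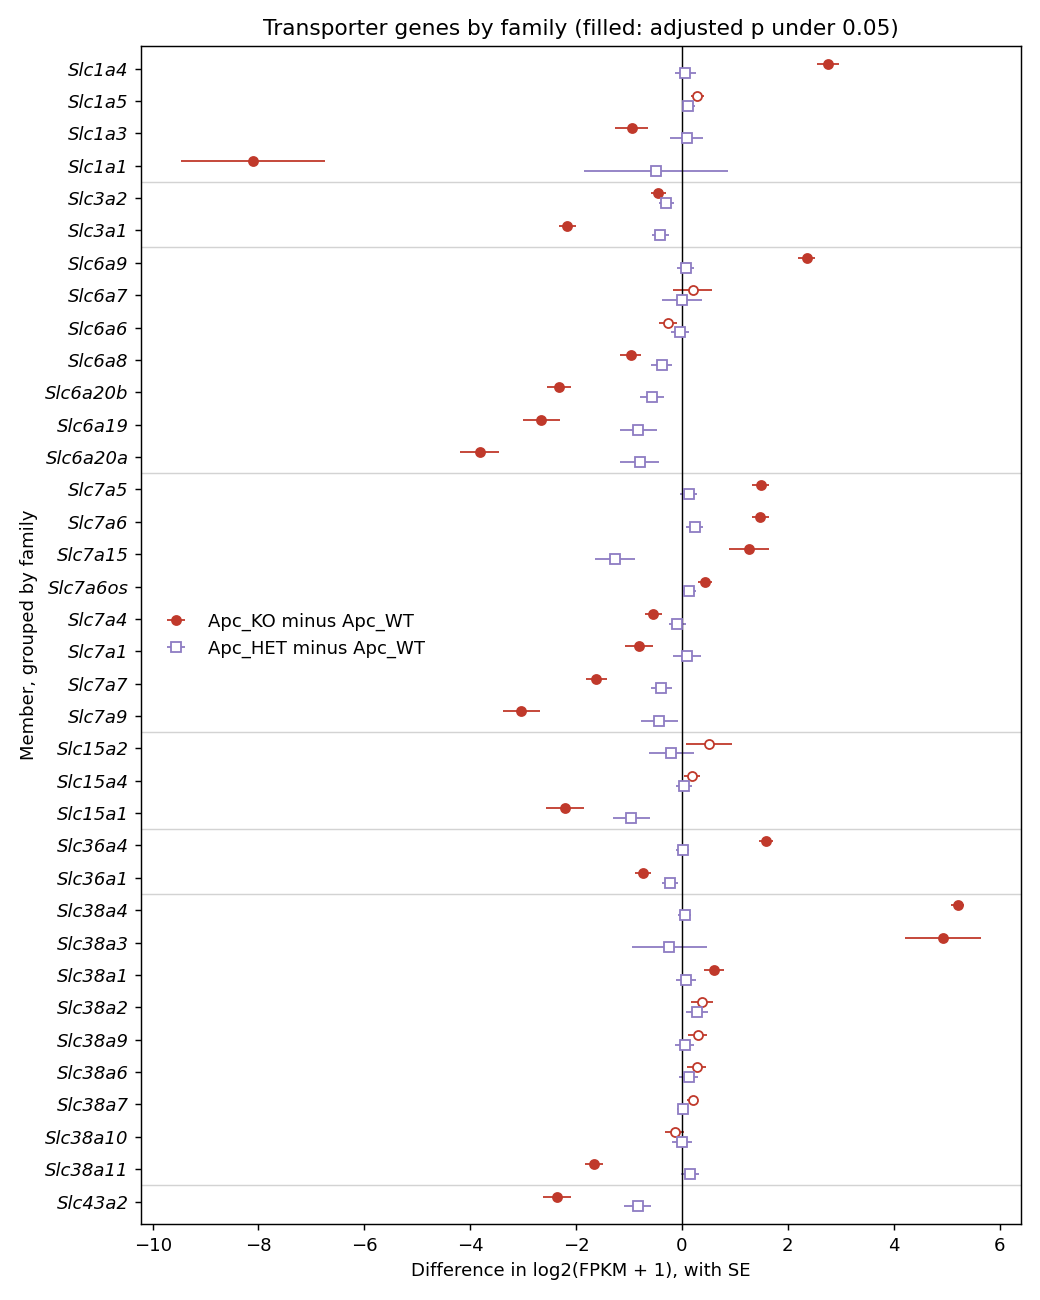
Difference in log2(FPKM + 1) with its standard error on the horizontal axis for the 36 tested members, grouped by family down the vertical axis, for Apc_KO minus Apc_WT (circles) and Apc_HET minus Apc_WT (squares). Filled symbols have an adjusted p under 0.05, as 26 circles and no square do. All families with more than 2 tested members, and Slc36a, hold Apc_KO circles on both sides of 0.

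By family, Slc1a had 1 of 4 tested members higher and 2 lower in Apc_KO against Apc_WT, with a median difference of -0.33. These counts stand beside 27.9% of all symbols called higher and 17.7% called lower. Both Slc3a chains were lower (median -1.31). Slc6a had 1 of 7 higher and 4 lower (median -0.97). Slc7a had 4 of 8 higher and 4 lower (median -0.06), Slc7a6os counted. In Slc15a 1 of 3 was lower, and Slc36a had 1 of 2 in each direction. Slc38a had 3 of 9 higher and 1 lower (median 0.30), near the 45.5% of all symbols called, and the 1 Slc43a gene was lower.

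Summed FPKM gave the balance among the tested members of a family. The Slc38a sum was 397.8, 483.9, 304.1 and 221.3 in Apc_KO, 173.5 to 193.7 in Apc_HET and 147.2 to 175.7 in Apc_WT. Every Apc_KO library was above the rest. This sum holds Slc38a3 and Slc38a4, which passed the FPKM filter only through or with their Apc_KO libraries. They made up 31.2% to 59.1% of it in Apc_KO and at most 0.985% elsewhere. The separation was thus partly fixed by the filter and does not speak for the other Slc38a members. The Slc38a3 locus spans only 4.4% of its gene. Without Slc1a1, the Slc1a sum was 127.6 to 141.7 in Apc_KO, 100.3 to 110.6 in Apc_HET and 87.1 to 106.2 in Apc_WT, again with every Apc_KO library above the rest. The Slc3a sum was 46.9 to 60.4 in Apc_KO, 61.8 to 84.9 in Apc_HET and 79.4 to 113.4 in Apc_WT. The Slc6a sum was 66.1 to 111.2 in Apc_KO, 75.9 to 129.9 in Apc_HET and 119.4 to 164.9 in Apc_WT, and the Slc7a sum was 82.4 to 127.5 in Apc_KO, 108.7 to 151.2 in Apc_HET and 131 to 179 in Apc_WT. Both overlapped between Apc_KO and Apc_HET and were lower in every Apc_KO library than in any Apc_WT library. The Slc6a sum lacks Slc6a4, and the Slc7a sum lacks Slc7a2, Slc7a8, Slc7a11 and Slc7a6os. Slc7a8 averaged 2.27 FPKM in Apc_KO and 33.0 in Apc_HET. Slc7a2 had 16.8 to 98.4 FPKM in Apc_KO and 22.0 to 104.4 in Apc_WT. The overlap and the separation therefore do not speak for the whole families. The Slc15a and Slc36a sums overlapped between all 3 genotypes. The 3 basolateral genes Slc7a7, Slc43a2 and Slc3a2 summed to 54.2 to 76.1 FPKM in Apc_KO, 79.4 to 114.2 in Apc_HET and 106.1 to 168.4 in Apc_WT.

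**Figure D5:**
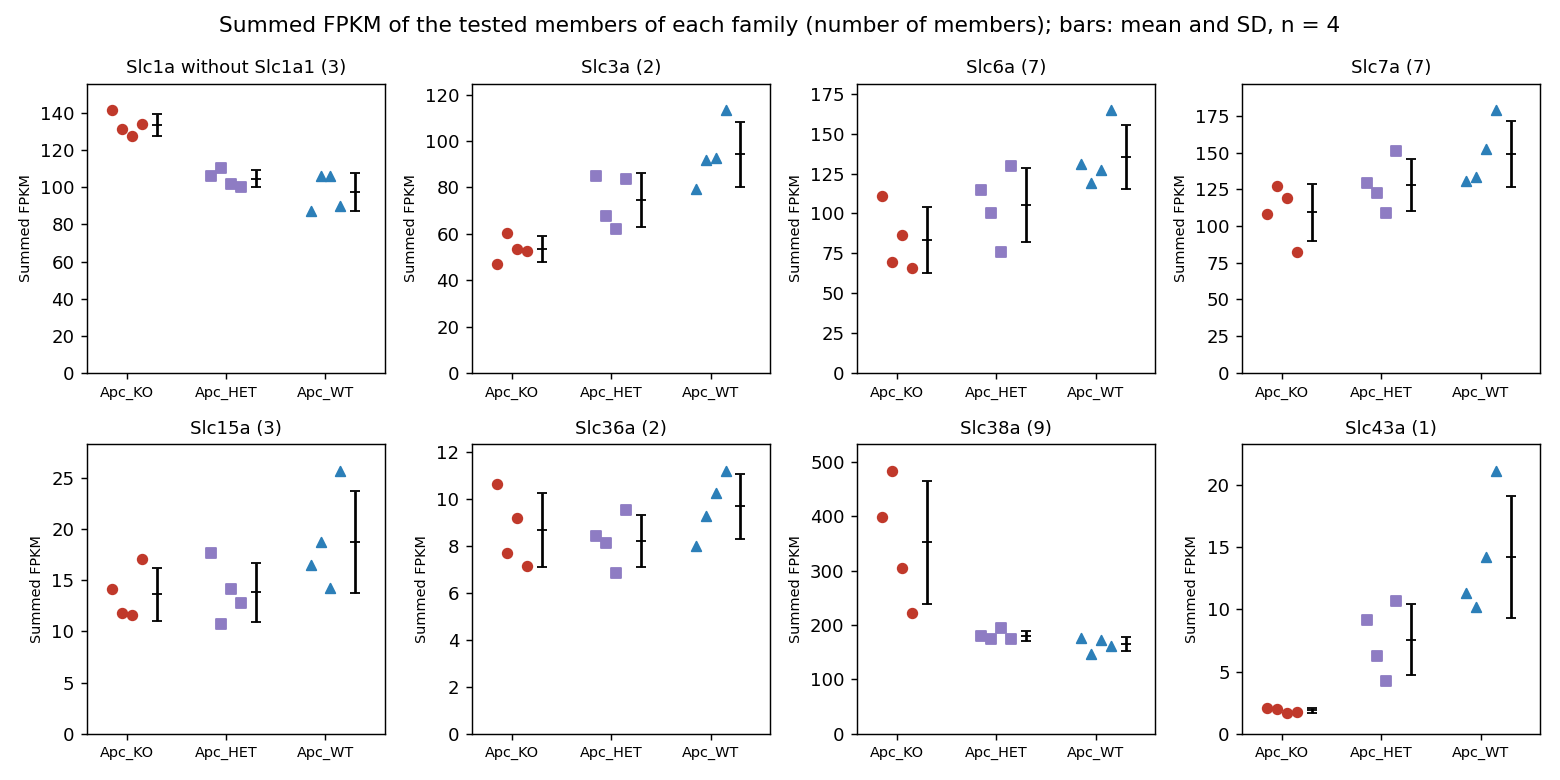
Summed FPKM of the tested members of each family on the vertical axis, from 0, with 1 point per library by genotype (Apc_KO, Apc_HET, Apc_WT) and the mean with SD over 4 libraries as a bar beside them. Slc1a is shown without Slc1a1 and Slc7a without Slc7a6os. The Slc38a sum is higher in all Apc_KO libraries (221.3 to 483.9) than in any other, and the Slc43a sum, 1 gene, is lower (1.69 to 2.05). The Slc38a sum holds Slc38a3 and Slc38a4, which passed the FPKM filter only through or with Apc_KO.

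In Apc_HET against Apc_WT limma called 0 of the 36 members, and 0 of 12962 symbols (0% of them). At an unadjusted p under 0.05 there were 6 members, all lower, beside 4.33% of all symbols, of which 1.06% of all were lower. The 3 with the smallest p were Slc7a15 (log2 difference -1.26), Slc43a2 (-0.84) and Slc15a1 (-0.96), each with a limma adjusted p of 0.987. The others were Slc3a1 (-0.41), Slc6a20b (-0.57) and Slc6a19 (-0.83). Of the 36, only Slc7a15 had libraries that did not overlap, with Apc_HET lower, beside 6.08% of all symbols, or 0.617% with Apc_HET lower. The sum of the 7 apical genes was lower in Apc_HET replicates 1, 2 and 3 than in any Apc_WT library, and the enterocyte markers were lower in the same 3. Their part was not tested.

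Amino acid carriers outside the 8 prefixes, mostly of mitochondria and lysosomes, had 2 of 12 higher, 3 lower and 7 that did not pass against Apc_WT, with a median of -0.03. Over all symbols 27.9% were called higher and 17.7% lower. Mfsd12, which carries cysteine into lysosomes and melanosomes, averaged 43.8 ± 10.7 FPKM in Apc_KO and 7.93 ± 1.63 in Apc_WT (SD, n = 4; 2.31), and Slc25a22, a mitochondrial glutamate carrier, averaged 26.1 ± 3.003 FPKM in Apc_KO and 13.3 ± 1.33 in Apc_WT (0.92). Slc25a15, the mitochondrial ornithine carrier, was lower, with 7.099 ± 1.39 FPKM in Apc_KO and 28.5 ± 2.44 in Apc_WT (-1.88). So were Slc16a10, an aromatic amino acid carrier of the basolateral membrane (-0.93), and the mitochondrial aspartate-glutamate carrier Slc25a12 (-0.57, adjusted p = 0.0481).

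Genes that sense amino acids for mTORC1 had 4 of 30 higher, 3 lower and 23 not called (median 0.01), beside 27.9% and 17.7% of all symbols called higher and lower. The Rag GTPase gene Rraga averaged 61.8 ± 10.6 FPKM in Apc_KO and 32.5 ± 1.11 in Apc_WT (SD, n = 4; 0.89), the GATOR subunits Nprl3 and Mios differed by 0.79 and 0.70, and Rheb, the GTPase that activates mTORC1, by 0.69. Rragd, another Rag GTPase, averaged 1.55 ± 1.23 FPKM in Apc_KO and 15.4 ± 0.9499 in Apc_WT (-2.81), and the leucine-sensor relative Sesn1 averaged 8.42 ± 1.38 FPKM in Apc_KO and 29.1 ± 6.62 in Apc_WT (-1.66). Sec13 was lower by a smaller amount (-0.57).

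Of 19 genes listed for the amino acid response through GCN2 and ATF4, 9 were higher, 3 lower and 7 not called (median 0.43). Over all symbols 27.9% were called higher and 17.7% lower. Atf4 itself did not pass (0.31, adjusted p = 0.208). Atf5, a factor of this response, averaged 16.4 ± 5.74 FPKM in Apc_KO and 5.44 ± 0.844 in Apc_WT (SD, n = 4; 1.40). The serine synthesis enzymes Phgdh and Psat1 averaged 46.3 ± 21.2 FPKM in Apc_KO and 18.5 ± 4.605 in Apc_WT (1.17) and 22.7 ± 9.06 FPKM in Apc_KO and 11.1 ± 3.17 in Apc_WT (0.93). The lower genes were the proline synthesis enzyme Aldh18a1, with 47.8 ± 19.4 FPKM in Apc_KO and 111 ± 5.803 in Apc_WT (-1.28), and the factors Cebpb (-1.06) and Cebpg (-0.40).

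Enzymes of glutamine, glutamate and glutathione had 3 of 15 higher, 6 lower and 6 not called (median 0.01), with Aldh18a1 counted here too. The shares over all symbols were 27.9% higher and 17.7% lower. Oplah, which returns 5-oxoproline to glutamate, averaged 11.5 ± 4.75 FPKM in Apc_KO and 2.81 ± 0.436 in Apc_WT (SD, n = 4; 1.64), and glutamine synthetase Glul averaged 96.7 ± 16.3 FPKM in Apc_KO and 71.4 ± 6.84 in Apc_WT (0.42). Gpt2, a mitochondrial alanine aminotransferase, was the third higher gene (0.56). Oat, the ornithine aminotransferase, averaged 241 ± 66.2 FPKM in Apc_KO and 856 ± 169 in Apc_WT (-1.84), and Bcat2, the mitochondrial branched-chain aminotransferase, averaged 33.5 ± 6.17 FPKM in Apc_KO and 110.2 ± 29.4 in Apc_WT (-1.67). None of these lists had a called gene in Apc_HET against Apc_WT.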

How the data were processed

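RNA of Lgr5-GFP+ cells was measured in 12 libraries, 4 per genotype. Bowtie, TopHat, Cufflinks, Cuffdiff and the build (mm10, GRCm38) are listed in the submitters' processing notes, without roles or versions. The deposited values are FPKM per assembled locus, as computed by the authors, per the file headers. No counts were used, and absolute depth and strandedness are not given in the sources used here, so no counting interval is given.

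FPKM were summed per gene symbol, over several loci for 2693 symbols. Of 14499 symbols, 295 with loci that differed between tables (69 of them absent from some) and 122 others with a failed estimate in any library were set aside, which left 14082. Assembled loci can cover part of a gene. Symbols with at least 1 FPKM in at least 4 libraries, 12962, were tested as log2(FPKM + 1) with limma 3.58.1 in R 4.3.3, with all 12 libraries in 1 fit, a trended prior and two-sided tests, so that differences of low genes are understated. P-values were Benjamini-Hochberg adjusted over all symbols tested, and a call needs an adjusted p under 0.05. In the text, log2 differences stand with their standard error (SE) where a test is given. Alternatives changed the pseudocount, filter, scaling, prior, weights, locus choice, genotypes in the fit, a replicate block and the libraries.

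Members and gene lists were chosen with earlier results of these data known. Every member is named, per-library values stand for called members with a genotype mean of at least 5 FPKM, and each list is named by up to 3 called genes in each direction. Mmp7, Ada, Pdgfrb, Kcnq1, Rheb and Gpt2 were named in addition after their values were seen, to fill out small counts, and some genes that the rule names are not reported here. Promoter sequences are from RefSeq (GRCm38.p6). Members on one chromosome are given without sequence.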

Additional observations from a re-analysis of the deposited data

Results flagged for a closer look

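For 7 of 120 groups of 4 libraries, 1 library lay further from its nearest neighbour, as a share of the group's range, than Dixon's critical value for 4 values. Chance gives about 1 in 20 such groups. Apc_WT replicate 4 was high for 4 brush border or basolateral genes. It had 16.5 FPKM of Slc15a1 (next library 7.79), 38.1 FPKM of Slc3a1 (next 26.0), 20.1 FPKM of Slc6a19 (next 8.89) and 72.0 FPKM of Slc7a7 (next 46.6). The same library had the highest sum of enterocyte markers, 6475 FPKM, against 3340 to 3832 FPKM in the other Apc_WT libraries, and the part of those markers was not tested. Slc1a1 had 196 FPKM in Apc_KO replicate 2, against at most 0.157 FPKM in the other Apc_KO libraries. Slc1a1 also had 1574 FPKM in Apc_WT replicate 3 (next 999). Slc7a11 had 7.85 FPKM in Apc_WT replicate 2 (next 3.46), at a locus that only the Apc_WT tables list under this symbol.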

How the results depend on the processing

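In Apc_KO against Apc_WT the number of symbols called was 5904, and 5244 to 6269 without any 1 library. The number of members called was 26, and 24 to 26 without any 1 library. The other settings of filter, scaling, prior, weights and design gave 22 to 28 members, and failed estimates set to missing gave 29. Against Apc_HET 5413 symbols were called, 4562 to 5622 without any 1 library, and 24 members, 21 to 24 without any 1 library. Size factors and quantile normalization moved the split of all calls as given above. In Apc_HET against Apc_WT the count of symbols was 0, and 1 with a pseudocount of 0.1, with only the 2 genotypes or with arrayWeights, each time Mdga1. It was 0 to 4 without any 1 library, with 4 (Cdh11, Crabp2, Fkbp10 and Smarca1) without Apc_HET replicate 4. No alternative called a member there.

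The labels do not say that equal replicate numbers pair the libraries. Correlations of same-numbered libraries lay between -0.195 and 0.18, and those of other pairs between -0.228 and 0.249. Such values cannot show whether libraries shared a day or batch. With the replicate as a block, 5681 symbols and 26 members were called in Apc_KO against Apc_WT, 5178 and 24 against Apc_HET, and 0 and 0 in Apc_HET against Apc_WT.

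Some members that were not called changed sign, and the cause was not tested. Against Apc_WT, quantile normalization gave -0.06 for Slc15a4 and -0.06 for Slc6a7. Slc38a10 was 0.11 with arrayWeights, -0.24 to 0.03 without any 1 library, the highest without Apc_KO replicate 4, and 0.13 without Apc_KO replicates 1 and 4. Slc6a7 was -0.39 with arrayWeights, -0.09 to 0.47 without any 1 library, with -0.09 without Apc_KO replicate 1, -0.03 without replicate 4 and -0.57 without both. Against Apc_HET, Slc38a10 was 0.06, -0.24 to 0.03 and 0.13 under the same settings as above. Slc6a7 was -0.43 with arrayWeights, -0.09 to 0.47 without any 1 library, with -0.09 without replicate 1, -0.02 without replicate 4 and -0.57 without both. Slc38a2 was -0.08 to 0.31 without any 1 library, the lowest without Apc_KO replicate 1, and Slc38a9 was -0.04 without replicates 1 and 4. A pseudocount of 0.1 enlarged the differences of members with low values, to -5.09 for Slc6a20a and 6.05 for Slc38a4 against Apc_WT. Absolute depth is unknown, and assembled loci that cover part of a gene limit what the values of Slc1a1, Slc38a3, Slc6a20b and Slc7a15 stand for.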
